A study of Rattus norvegicus with 14 samples.

Results

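Heme and iron handling was followed through 10 genes in rat liver: Alas1, Abcb6, Hmox1, Blvra, Blvrb, Fth1, Ftl1, Tfrc, Slc40a1 and Hamp. They were chosen by name and function, though with earlier results of these data known, and all 10 were found among the 14506 genes tested. A member was measured by its brightest array feature with exactly 1 gene symbol, and 16 such features carried the 10 symbols. The animals were 14 female lean Zucker rats of genotype fa/+ (heterozygous for the leptin receptor mutation fa), about 15 weeks old according to the series title. Of these, 7 control rats ate a standard diet, and 7 extract rats ate it with 0.05% by weight of a rosemary extract, in which carnosic acid made up 40%. Livers were taken after 64 days, and each rat was hybridised to its own Affymetrix array, so that n counts animals. The sample labels give the dose as 0.05%, whereas the series title gives 0.5%. A lean genotype, 1 dose and 1 time point limit the design.

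Liver handles much of the body's heme and iron. Alas1 starts heme synthesis and sets its rate, and Abcb6 is a membrane transporter of porphyrins. Heme oxygenase (Hmox1) opens the heme ring to biliverdin, carbon monoxide and iron, and the biliverdin reductases Blvra and Blvrb complete the step to bilirubin. The freed iron is stored in ferritin, built of heavy (Fth1) and light (Ftl1) chains, or leaves the cell through ferroportin (Slc40a1), while the transferrin receptor Tfrc brings iron in. Hepcidin, the peptide encoded by Hamp, is made by hepatocytes and removes ferroportin from cell surfaces. Hmox1, Blvrb, both ferritin genes and Slc40a1 are widely described as targets of NRF2, a transcription factor that electrophiles activate. The comparison thus asks whether this arm of the response moved with the extract. That naming is not a full list, and whether NRF2 also targets the other heme and iron genes named here was not assessed.

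Of the 10 members, 1 rose and 0 fell. Abcb6 rose 1.35-fold and the other 9 did not pass a Benjamini-Hochberg adjusted p of 0.05 in limma, fitted over all 14506 genes. Over all genes 3.15% were called, 2.0% higher and 1.15% lower. At an unadjusted p under 0.05 the members numbered 2 (Abcb6 and Tfrc), against 14.8% of all genes. No member had all 7 extract rats on one side of the controls (0 of 10), a pattern shown by 1.54% of all genes. The log2 fold (extract minus control) was positive in 9 members and negative in 1, Hmox1. Its median was 0.11 over the members and -0.00 over all genes, and the median size regardless of sign was 0.13 against 0.08. All 10 members had a mean signal above the median probe (5.1 on the log2 scale). Over all genes the fold's standard error had a median of 0.087 on the log2 scale.

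**Figure D1:**
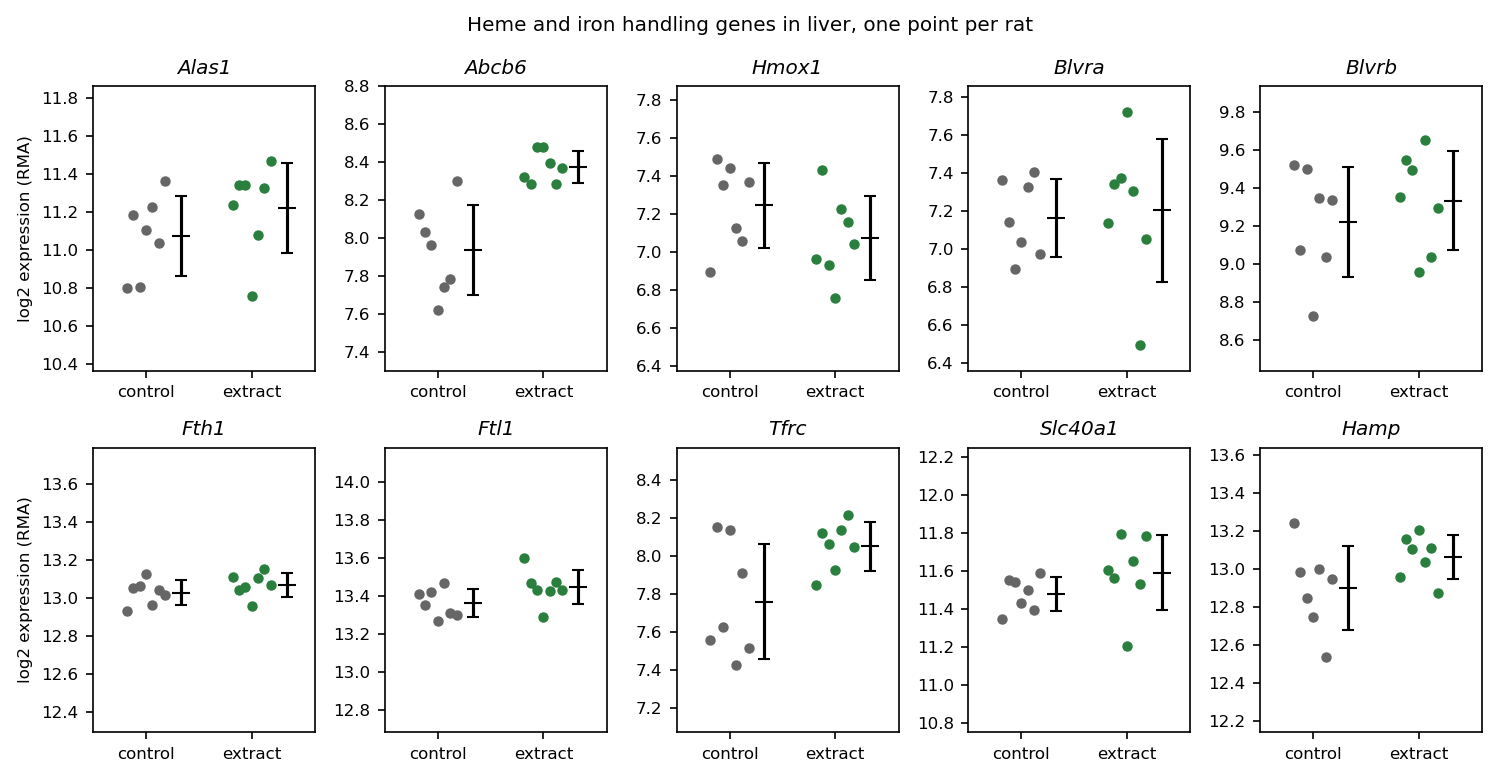
Log2 expression (RMA) of the 10 heme and iron genes in each rat, grey for control and green for extract, with the mean and SD (n = 7) beside each group; every panel spans the same 1.5 log2 units. The extract rats of Abcb6 lie between 8.28 and 8.48 against 7.62 to 8.30 in controls, with 5 of 7 above every control. The groups overlap in every panel, though to differing degrees. In Slc40a1, 4 of 7 extract rats lie above every control and 1 below, and in Ftl1 3 of 7 lie above.

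The porphyrin transporter Abcb6 was the member that changed. Control rats ranged from 7.62 to 8.30 with a median of 7.96, and extract rats from 8.28 to 8.48 with a median of 8.37. Of the extract rats, 5 of 7 lay above every control and the other 2 lay just below control rat 7, the highest control. The extract rats were also closer to each other than the controls were (8.37 ± 0.08 against 7.94 ± 0.24, SD, n = 7 each). This gave a log2 fold of 0.44 ± 0.09 (SE), with a 95% interval of 0.24 to 0.63 and a limma adjusted p of 0.0121. The call was lost in a test per gene that allowed unequal spread (adjusted p = 0.0873). It was also lost with the mean of macrophage markers as a covariate (log2 fold 0.54, adjusted p = 0.349), a setting added after the data were seen in which marker level and diet can hardly be separated.

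Alas1 did not pass. Its values ran from 10.80 to 11.36 in controls (median 11.10) and from 10.76 to 11.46 in extract rats (median 11.32). Extract rat 4 was the lowest of all 14 and extract rat 7 the highest, so the extract range enclosed that of the controls. The log2 fold was 0.15 ± 0.11 (SE; limma adjusted p = 0.599), with a 95% interval of -0.08 to 0.38.

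In the whole list of heme synthesis, Alas1 included, 8 of 9 enzymes were measured, of which 1 rose, 0 fell and 7 did not pass, with a median log2 fold of 0.04. The riser was Fech, ferrochelatase, which inserts iron into protoporphyrin in the last step. It went from 8.69 ± 0.14 to 9.05 ± 0.20 (SD, n = 7 each), 1.29-fold, with all 7 extract rats (8.91 to 9.49) above all controls (8.41 to 8.83) and a limma adjusted p of 0.0353. Leaving out 1 rat ended that call for 7 of the 14 (control rats 2, 5, 6 and 7 and extract rats 2, 3 and 5, adjusted p between 0.0501 and 0.0734), as did the unequal-variance test (0.0987). Alad, which makes porphobilinogen from aminolevulinate, had a log2 fold of -0.24 (limma adjusted p = 0.184), with 4 of 7 extract rats below every control. The values for the other enzymes were -0.13 for Ppox, 0.13 for Cpox, 0.10 for Urod, -0.16 for the erythroid isoenzyme Alas2 and -0.03 for Uros, whose sign turned in 5 of 26 alternative settings. The enzyme of the last step was thus higher while that of the first, Alas1, did not pass; the difference between these 2 enzymes was not tested.

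Hmox1 was the member with a negative fold and did not pass; under 3 alternatives Blvra was negative too. Controls ranged from 6.89 to 7.49 (median 7.35) and extract rats from 6.76 to 7.43 (median 7.04). The groups overlapped over most of that range: 1 extract rat, number 4, lay below every control and 0 lay above. The difference on the log2 scale was -0.17 ± 0.11 (SE; limma adjusted p = 0.504), with a 95% interval of -0.40 to 0.05, so a rise above 0.05 on the log2 scale lay outside it. The fold stayed negative under all 26 alternative settings (-0.39 to -0.12) and passed in 0 of them (adjusted p from 0.241 to 0.887). Several of these settings leave the fold itself unchanged by design, and most others share all but 1 rat. Hmox2, the constitutive heme oxygenase, had a log2 fold of 0.00 (limma adjusted p = 0.993), with a sign that turned when any of 5 rats was left out.

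Macrophages of the liver take up aged red cells and are a known site of Hmox1 and Slc40a1 expression. In these arrays 14 of 17 listed symbols of macrophage markers were measured, where Adgre1 and Emr1 name the same gene. For 13 of the 14 the extract mean was the lower one (median log2 fold -0.26 over the 14, 12 with an unadjusted p under 0.05). In limma 2 passed, named here after their values were seen: the scavenger receptor Marco (log2 fold -0.73, limma adjusted p = 0.0059) and the complement receptor Vsig4 (-0.51, adjusted p = 0.0243; 0.0542 without extract rat 1 and 0.0617 without extract rat 2). The mean of the 14 markers lay between 8.93 and 9.18 in control rats and between 8.60 and 8.89 in extract rats, without overlap, and 0 of the 14 had a mean below the median probe. All 6 measured markers of liver endothelium were likewise negative (median log2 fold -0.18), and 0 of them passed in limma (2 had an unadjusted p under 0.05). Negative folds were also found for 8 of 9 lymphocyte, 6 of 8 neutrophil, 5 of 8 stellate cell, 5 of 9 erythroid and 2 of 6 bile duct markers. In limma 1 stellate cell and 1 bile duct marker fell, and 0 of the lymphocyte, neutrophil and erythroid markers passed. Means lay below the median probe for 5 of 9 lymphocyte and 6 of 8 neutrophil markers. In bulk tissue, fewer cells of a type and less RNA per cell cannot be told apart.

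With each group's mean subtracted, Hmox1 and the marker mean had a Pearson r of -0.37 (permutation p = 0.199, adjusted over 10 members 0.968) and a Spearman rho of -0.37 (permutation p = 0.194, adjusted 0.907) over 14 rats. Without the rats farthest out in the marker mean, extract rat 2 and control rat 1, r was 0.02. For Slc40a1 r was 0.35 (permutation p = 0.232) and rho 0.25 (permutation p = 0.392; adjusted 0.968 and 0.907), with an r of 0.53 without those 2 rats, and of the 10 members 0 passed. A rise in r without these rats was not particular to Slc40a1. For Alas1 it went from 0.18 to 0.50 and for Tfrc from 0.20 to 0.42, whereas for Hamp it went from -0.06 to -0.31 and for Abcb6 from 0.22 to 0.05. With the marker mean as a covariate the log2 fold of Hmox1 was -0.39 (limma adjusted p = 0.887), but the marker mean separates the groups, so diet and marker level cannot be told apart in that fit. What part the marker level has in the fold of any member was not tested beyond it.

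**Figure D2:**
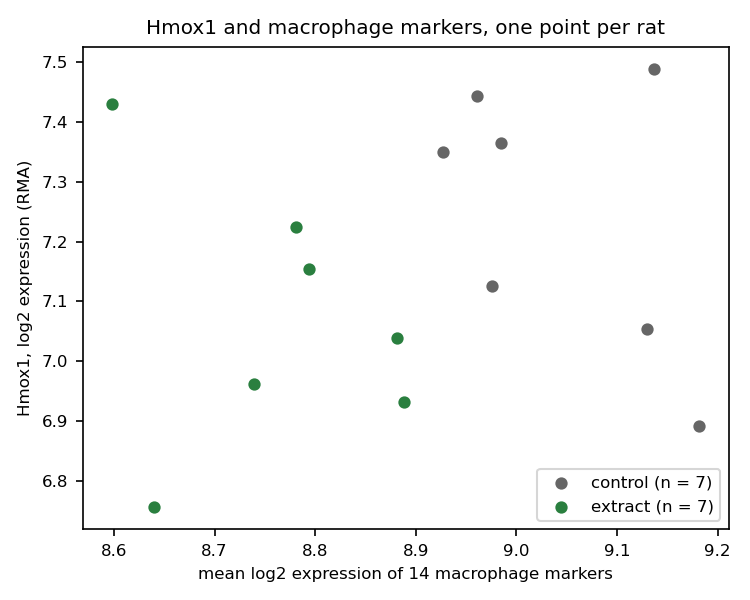
Log2 expression (RMA) of Hmox1 in each rat against the mean log2 expression of 14 macrophage markers, grey for control and green for extract (n = 7 each). The marker mean separates the groups (8.93 to 9.18 against 8.60 to 8.89), whereas the Hmox1 values of the groups overlap.

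The biliverdin reductases did not pass either. Blvra ranged from 6.89 to 7.40 in controls (median 7.14) and from 6.49 to 7.72 in extract rats (median 7.30), with extract rat 6 the lowest and extract rat 4 the highest of all 14. Its spread was 0.20 in controls and 0.38 in extract rats (SD, n = 7 each). Their difference was 0.04 ± 0.14 (log2 fold, SE; limma adjusted p = 0.941), and its sign turned without control rat 3 (-0.005) or extract rat 4 (-0.046). Blvrb, which also reduces flavins, ranged from 8.72 to 9.52 in controls (median 9.33) and from 8.95 to 9.65 in extract rats (median 9.35). The medians were nearly equal and the log2 fold was 0.11 ± 0.13 (SE; limma adjusted p = 0.770).

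In the list of heme breakdown and bilirubin, 6 of 7 genes were measured, and 1 rose, 0 fell and 5 did not pass. The riser was Abcc2, the canalicular pump that exports bilirubin glucuronides, at 1.26-fold (11.77 ± 0.20 to 12.10 ± 0.13, SD, n = 7 each; limma adjusted p = 0.0478). Of the extract rats, 6 of 7 lay above every control. It no longer passed when any of 10 rats was left out (all but control rats 1 and 2 and extract rats 4 and 5; adjusted p between 0.0501 and 0.107). Nor did it after a further quantile normalization (0.0813) or with array medians aligned (0.0624). Slco1b2, a hepatic uptake transporter of organic anions, had a log2 fold of 0.13 (limma adjusted p = 0.397).

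A sequence that NRF2 binds, the antioxidant response element, was looked for to set the members beside NRF2 targets outside heme and iron. Its core TGACNNNGC (GCNNNGTCA on the other strand) was sought in promoter windows from 250 bases before to 50 after the start site, from RefSeq on GRCr8. Windows were found for 7 of 10 members. Hmox1, Fth1 and Ftl1, all described as NRF2 targets, were not searched, so the members' count cannot be read as a scarcity of the core. Of the 7 searched, 1 held it: Blvra, 145 bases before the start. Of 21 comparison NRF2 targets with a window (24 windows in all), whether they rose or not, 8 held it. Of all 33469 windows 12.1% held it, a share per window and not per gene. The stretch of Blvra at chr3:134802755-134802783 (plus strand) is printed with those of 3 comparison targets that held the core and rose, chosen after their values were seen: Gclm at chr2:213031953-213031981 (plus strand), Me1 at chr8:96540393-96540421 (minus strand) and Gstp1 at chr1:210769748-210769776 (minus strand). Capitals mark the core, and those of Blvra and Gstp1 lie within the gene's outer bounds in the gene table. 
Blvra: ttaaatatttGCTGGGTCAccgaagtgga
Gclm: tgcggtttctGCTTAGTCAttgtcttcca
Me1: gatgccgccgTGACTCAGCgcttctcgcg
Gstp1: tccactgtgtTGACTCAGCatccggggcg

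Me1 and Gstp1 share the same 9 letters, and Blvra and Gclm carry other forms of the core on the other strand. A match is a description of letters, not a binding site. The gene with the match among the members, Blvra, had a log2 fold of 0.04, and Gclm had 1.01.

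Neither ferritin chain passed. Fth1 ranged from 12.93 to 13.13 in controls (median 13.04) and from 12.96 to 13.16 in extract rats (median 13.07), so that the groups covered almost the same range. For Fth1 the log2 fold was 0.04 ± 0.06 (SE; limma adjusted p = 0.809), with a 95% interval of -0.07 to 0.16. Ftl1 ranged from 13.27 to 13.47 in controls (median 13.35) and from 13.29 to 13.60 in extract rats (median 13.43), with 3 of 7 extract rats above every control. Its log2 fold was 0.09 ± 0.06 (SE; limma adjusted p = 0.57), with a 95% interval of -0.04 to 0.21.

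These symbols had 8 array features in all, 2 for Fth1 and 6 for Ftl1, and ferritin has many processed copies in the genome that such features can match. In a fit over every probe of the table, the log2 folds of the 8 lay between 0.04 and 0.13, all positive, and 0 passed (1 had an unadjusted p under 0.05). Their means lay between 12.2 and 13.4, near the highest deposited value of 14, and how far such bright features compress a fold was not tested. In the list of iron storage, 0 of 5 measured genes passed in limma (0 at an unadjusted p under 0.05), with the mitochondrial ferritin Ftmt first (log2 fold 0.16, adjusted p = 0.377).

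Tfrc, the receptor for iron-loaded transferrin, had the second largest fold among the members but did not pass. Controls ranged from 7.43 to 8.15 (median 7.63) and extract rats from 7.85 to 8.21 (median 8.07). The controls were divided, with rats 2, 4 and 6 at 7.91 or above and the other 4 at 7.63 or below, while all 7 extract rats were at 7.85 or above, 1 of them above every control. Tfrc thus had a log2 fold of 0.29 ± 0.11 (SE; 95% interval 0.05 to 0.53), with an unadjusted p of 0.0192 and a limma adjusted p of 0.213, and it passed under 0 of 26 alternative settings (adjusted p from 0.0989 to 0.887). The list of iron uptake and reduction had 14 of 14 genes measured, and in limma 0 passed (3 had an unadjusted p under 0.05). Steap4, a metalloreductase, came first by p with a log2 fold of -0.26 (adjusted p = 0.2), whose sign turned with the macrophage marker mean as a covariate (0.05, adjusted p = 0.999).

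The exporter Slc40a1 ranged from 11.34 to 11.59 in controls (median 11.50) and from 11.20 to 11.80 in extract rats (median 11.60). Of the extract rats, 4 of 7 lay above every control and 1, rat 4, lay below every control. The log2 fold was 0.11 ± 0.08 (SE; limma adjusted p = 0.596), with a 95% interval of -0.06 to 0.29. The oxidases that load iron onto transferrin after export belong to the same list, in which 0 of 3 measured genes passed in limma (2 had an unadjusted p under 0.05). Heph, hephaestin, had the smallest p (log2 fold 0.18, adjusted p = 0.291), at means of 3.47 and 3.66, below the median probe.

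Hamp ranged from 12.53 to 13.24 in controls (median 12.95) and from 12.87 to 13.20 in extract rats (median 13.10). Every extract value lay inside the range of the controls. The log2 fold was 0.16 ± 0.09 (SE; limma adjusted p = 0.436), with a 95% interval of -0.03 to 0.36. Like the ferritin features, Hamp had means (12.90 in controls, 13.06 in extract rats) near the highest deposited value of 14, and compression of its fold was not tested. The spread was 0.22 in controls and 0.12 in extract rats (SD, n = 7 each).

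Hamp transcription is known to follow iron through BMP and SMAD signalling and inflammation through STAT3, and its promoter holds short motifs of both kinds close together. The stretch at chr1:95300341-95300420 (minus strand, GRCr8, RefSeq) is shown because it carries both: capitals mark the BMP response element GGCGCC, 129 bases before the start, and the STAT site TTCNNNGAA, 117 bases before it. Both motifs read the same on the other strand.
Hamp: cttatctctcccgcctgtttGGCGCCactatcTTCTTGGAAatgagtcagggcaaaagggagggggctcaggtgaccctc

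Of the 7 members with a window, 2 held the BMP motif (Hamp and Tfrc) and 2 the STAT motif (Hamp and Alas1), against 11.02% and 8.87% of all windows. In the list of hepcidin control, 24 of 26 listed symbols were measured, where Hjv and Hfe2 name the same gene. In limma 0 rose and 0 fell (2 had an unadjusted p under 0.05), with a median log2 fold of 0.01. First by p was Hfe, which encodes the hemochromatosis protein. It went from 7.35 ± 0.30 to 7.81 ± 0.25 (SD, n = 7 each; log2 fold 0.46, limma adjusted p = 0.063). Without control rat 1 (7.96, against at most 7.42 in the other controls) or without extract rat 7, it passed (adjusted p = 0.00347 and 0.0208), as it did under 4 other settings (0.00724 to 0.0476). Of 12 acute phase genes, measured beside Hamp because the same cytokine raises them, 0 rose and 1 fell: Orm1, orosomucoid (log2 fold -0.71, limma adjusted p = 0.0204; 0.0513 without control rat 3, 0.0521 without extract rat 2 and 0.0505 without extract rat 3). The median of that list was -0.00, with 6 folds positive and 6 negative, and 4 of the 12 genes had an unadjusted p under 0.05.

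**Figure D3:**
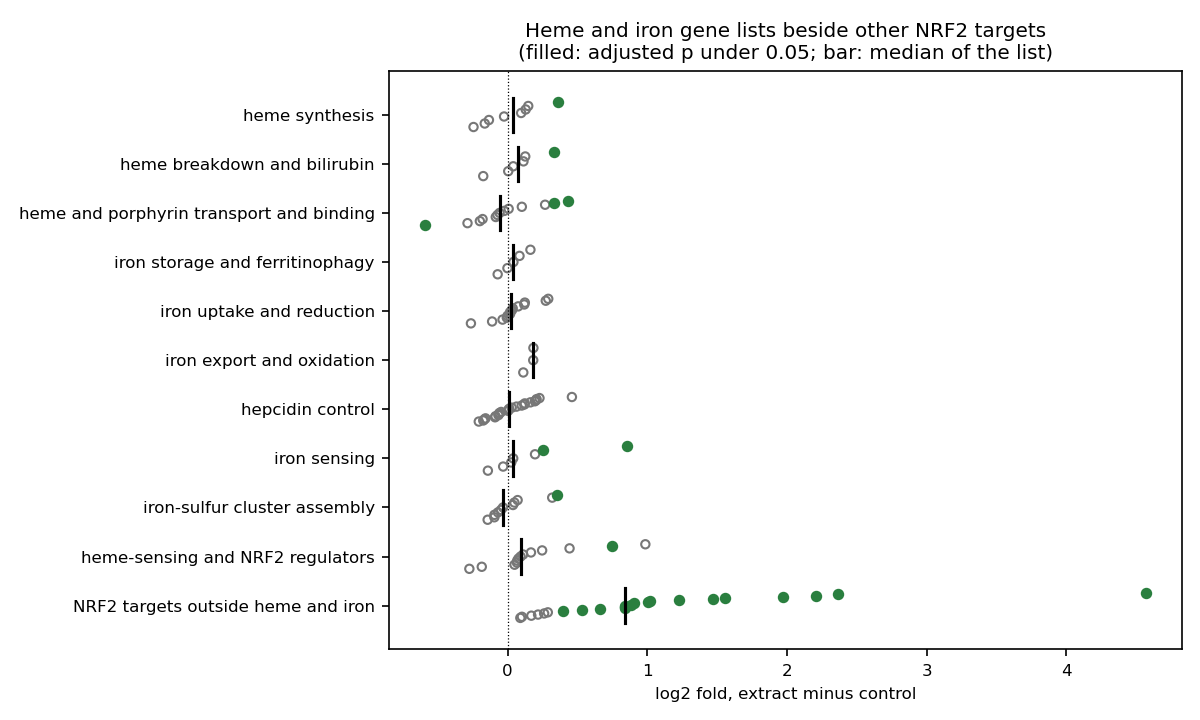
Log2 fold (extract minus control) of every measured gene in 10 heme and iron lists and in a list of NRF2 targets outside heme and iron; filled points passed an adjusted p of 0.05, and the bar is the list's median. The heme and iron lists, drawn up by function and not by NRF2 control, have medians between -0.06 and 0.18. The list of NRF2 targets, whose rise was known from earlier results, has a median of 0.84.

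Outside the members, 94 further genes of heme and iron handling were measured in 10 lists, of which 7 rose, 1 fell and 86 did not pass. Over all genes 3.15% passed. At an unadjusted p under 0.05 the 94 genes numbered 22, against 14.8% of all genes. The median log2 fold of the 94 was 0.03. These lists were chosen with earlier results of these data known. Among transporters and binding proteins of heme, with 13 of 15 measured and Abcb6 among them, 2 rose (Abcb6 and Pgrmc1) and 1 fell (Abcg2). Pgrmc1, a heme-binding membrane protein that partners with cytochromes P450, rose 1.26-fold (12.50 ± 0.14 to 12.84 ± 0.05, SD, n = 7 each; limma adjusted p = 0.0074), with 6 of 7 extract rats above every control. Abcg2, an exporter of drugs and porphyrins, fell from 6.78 ± 0.24 to 6.19 ± 0.26 (log2 fold -0.59, adjusted p = 0.0094), with 6 of 7 extract rats below every control. Abcb6 and Abcg2, both of which carry porphyrins, thus moved in opposite directions.

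In the list of iron and oxygen sensing, 2 of 7 measured genes rose. Egln3, an iron-dependent prolyl hydroxylase, rose 1.81-fold from 3.80 ± 0.22 to 4.65 ± 0.24 (SD, n = 7 each; limma adjusted p = 0.000177), without overlap between the groups but with both means below the median probe. Ireb2, which encodes an iron regulatory protein that binds ferritin and transferrin receptor transcripts, rose 1.19-fold (adjusted p = 0.0492). Leaving out any of 12 rats, all but extract rats 4 and 5, ended that call (adjusted p between 0.053 and 0.116). A further quantile normalization (0.0617) and aligned array medians (0.0753) ended it too. Of 11 genes of iron-sulfur cluster assembly, 1 rose: Ciapin1, a factor of the cytosolic pathway (1.28-fold, limma adjusted p = 0.0212; 0.0528 without extract rat 2). Among 13 regulators linked to heme sensing and NRF2, 1 rose: Ppargc1a, a coactivator known to induce Alas1 (1.68-fold, from 6.19 ± 0.31 to 6.94 ± 0.10, SD, n = 7 each; limma adjusted p = 0.000624). In that list 3 had an unadjusted p under 0.05: Ppargc1a, Bach1 and Nfe2l2, which encodes NRF2. Bach1 had a log2 fold of 0.25 (limma adjusted p = 0.0642), with 5 of 7 extract rats above every control. Nfe2l2 had -0.27 (limma adjusted p = 0.135), with 5 of 7 extract rats below every control. Of the 9 genes in these lists that passed, Pgrmc1, Egln3 and Ppargc1a also did so in the unequal-variance test, and 0 did so with the macrophage marker mean as a covariate, where 28 of all genes passed.

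The members were then set against NRF2 targets outside heme and iron. Of 23 measured genes of that comparison list, 17 rose, 0 fell and 6 did not pass, with a median log2 fold of 0.84; this direction was known from earlier results. Nqo1, a quinone reductase, ranged from 7.86 to 8.51 in controls and from 9.32 to 9.998 in extract rats, a log2 fold of 1.55 ± 0.12 (SE, limma adjusted p = 3.59e-07). The subunits of glutamate-cysteine ligase, Gclc and Gclm, had log2 folds of 0.88 and 1.01, and the 95% interval of Gclc (0.71 to 1.05) began above the highest upper limit of the 9 members that did not pass (0.53). The 3 genes of the list with the smallest p were Akr1b8 (23.8-fold), Akr7a3 (4.61-fold) and Abcc3 (3.92-fold).

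The difference between the folds of Nqo1 and each member is given as a description, with no test, since Nqo1 was chosen with its rise known. The fold of Nqo1 was larger than that of every member, by 1.73 ± 0.18 (SE) on the log2 scale for Hmox1 and by 1.12 ± 0.14 for Abcb6, which came closest. In between lay Blvra (1.51), Fth1 (1.51), Ftl1 (1.47), Slc40a1 (1.44), Blvrb (1.44), Alas1 (1.41), Hamp (1.39) and Tfrc (1.26).

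**Figure D4:**
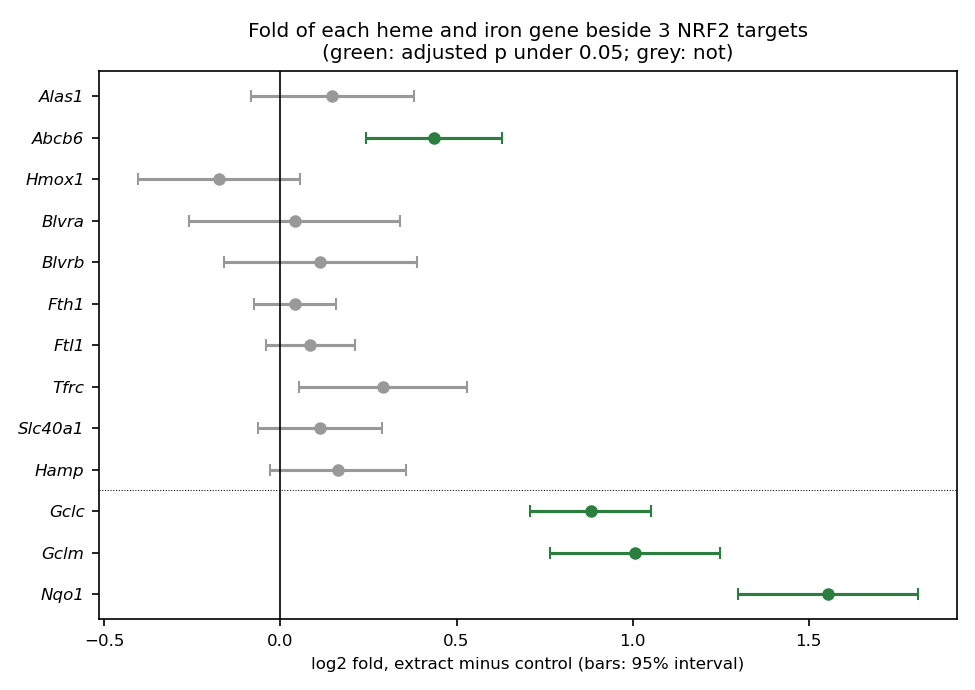
Log2 fold (extract minus control) of each heme and iron gene and, below the dotted line, of the NRF2 targets Gclc, Gclm and Nqo1, with 95% intervals (n = 7 rats per group); green passed an adjusted p of 0.05 and grey did not. The highest upper limit among the 9 grey members is 0.53, and the interval of Abcb6 runs from 0.24 to 0.63.

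Within groups, some pairs of members varied alike and others oppositely. With each group's mean subtracted, the Pearson r of the 45 pairs of members ranged from -0.73 to 0.71 with a median of 0.06 over 14 rats, given as a description. Slc40a1 and Alas1 were the pair with the highest r (0.71) and Blvra and Fth1 the pair with the lowest (-0.73). Hmox1 and Fth1 had 0.60 and Fth1 and Tfrc 0.61.

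Among 14505 other genes, those most like Abcb6 within groups were Spint2 (r = 0.92), Sumf2 (0.92) and Guk1 (0.90), with log2 folds of -0.10, 0.10 and -0.01. For Hmox1 they were Tjp3 (0.88), Gnal (0.84) and Gstcd (0.84), for Alas1 Nod1 (0.94), Usp6nl (0.94) and Cbx6 (0.93), and for Ftl1 Ahsg (0.93), Prim2 (0.87) and Rhog (0.86). For Tfrc they were Mmgt1 (0.92), Cop1 (0.89) and Xpo1 (0.85), for Slc40a1 Lman2l (0.92), Tbc1d20 (0.90) and Abhd12 (0.89), and for Hamp Mrpl34 (0.90), Ehf (0.90) and Camp (0.88). For Blvra they were Trpv6 (0.88), Cdx4 (0.86) and Sod1 (0.86), for Blvrb Exosc2 (0.91), Nop53 (0.87) and Rp9 (0.87), and for Fth1 Alkbh1 (0.89), Cpne4 (0.85) and Adal (0.82). No member is among these genes. Each is the highest of many values over 14 rats, so that such an r describes these rats only.

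The markers of the labelled tissue were present. All 12 hepatocyte markers were measured and 0 passed in limma (0 at an unadjusted p under 0.05), and their mean lay between 12.4 and 12.6 in every rat. Of 9 measured erythroid markers 5 had a mean below the median probe, and 0 passed (0 at an unadjusted p under 0.05). Array medians ran from 5.02 to 5.15, and array weights from 0.41 (control rat 1) and 0.463 (extract rat 4) to 2.05. Without those 2 arrays Abcb6 had a log2 fold of 0.45 (limma adjusted p = 0.0132) and the count of members that passed was again 1.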

How the data were processed

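Total liver RNA of 14 rats was labelled for whole-transcript Affymetrix arrays, per the labels' protocols. The authors deposited log2 expression for 29215 probes, made with RMA in Affymetrix Expression Console 1.1.2, per the submitters' processing notes; the log2 scale was read from their range (1.95 to 14), and RMA can compress folds of dim probes. Gene symbols came from the platform annotation at GEO: 15310 had 1 gene symbol, 323 several and 13582 none here. The brightest probe of each gene was kept, giving 14506 genes, with no filter on dim probes. Of 15310 identifiers, 15279 were in the RefSeq gene table (GRCr8), which changed 0 symbols. Groups came from the sample titles. A genome build for the array is not given in the sources that were used.

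Groups were compared with limma 3.58.1 (lmFit, eBayes, two-sided) in R 4.3.3, without covariates, and p-values were adjusted by Benjamini-Hochberg over all genes at 0.05. Precision is limited by the number of arrays. The 10 members and all lists were chosen with earlier results of these data known. The text names all members and all measured genes of heme synthesis and breakdown. From each other list it names up to 4 that passed, or else the gene with the smallest p. It also names Nqo1, Gclc and Gclm, and further the 3 genes most correlated with each member. Marco, Vsig4, Me1, Gstp1, Bach1 and Nfe2l2 were named after their values were seen. The exact permutation test planned for differences from Nqo1 is not reported, since that gene's rise was known. Correlations with macrophage markers used 100000 permutations. Folds and intervals (95%) are limma's. The fit and permutation code was tested on simulated data. Tables and figures used Python 3.11.15, pandas 2.3.3, scipy 1.17.1 and matplotlib 3.10.9.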

Additional observations from a re-analysis of the deposited data

Results flagged for a closer look

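In 7 of 78 groups of 7 values (39 named genes in 2 groups), 1 rat stood apart from the other 6 by more than Dixon's 95% limit, which chance passes in about 1 of 20 groups. None of these groups belonged to the 10 members. Control rat 1 stood high in Gclm (10.61, others 9.69 to 10.08), Pgrmc1 (12.79, others 12.39 to 12.55), Hfe (7.96, others 7.09 to 7.42) and Vsig4 (10.83, others 10.14 to 10.37). Extract rat 4 stood high in Fech (9.49, others 8.91 to 9.09) and low in Ppargc1a (6.72, others 6.93 to 7.03). These are the 2 arrays of lowest weight. Extract rat 5 stood high in Alas2 (7.91, others 6.62 to 7.09).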

How the results depend on the processing

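Over 26 alternatives, 255 of 260 member folds kept their direction and their side of the threshold. These alternatives are not independent. Several, such as the filters on dim genes and the unequal-variance test, leave the fold itself unchanged by design, and 14 leave out 1 rat each. The 5 exceptions were Blvra, with log2 folds of -0.046 to 0.159 when 1 rat was left out (negative without control rat 3 or extract rat 4) and -0.013 without the 2 arrays of lowest weight, and Abcb6, with log2 folds of 0.435 in the unequal-variance test and 0.539 with the macrophage marker mean as a covariate (adjusted p = 0.0873 and 0.349), so that 0 members rose in these. The covariate and the fit without 2 arrays were chosen after seeing the data. All genes called numbered 457, against 694 with array weights, 227 in the unequal-variance test and 28 with that covariate, which the groups do not share in range; 7 comparison targets then passed, against 17. The heme and iron genes that passed numbered 9, against 3, 5 and 0 in the unequal-variance test, with the rat number as a replicate block and with the covariate, and 5 to 9 with 1 rat left out (5 without extract rat 2). The count was 13 with array weights, and 10 with either filter on dim genes, with the mean of all probes or without the 2 arrays of lowest weight. It was 7 after a further quantile normalization or with array medians aligned, and 6 in the fit over every probe. The labels do not say whether the rat numbers pair the rats. Deviations of same-numbered rats correlated from -0.46 to 0.282, but rats of different numbers were not compared, so pairing could not be judged. With the replicate block 364 genes passed, Abcb6 among them (limma adjusted p = 0.0367). Signs turned for Uros (0.002 with array weights, 0.01 without the 2 arrays, -0.106 to 0.04 with 1 rat left out), Hmox2 (-0.093 to 0.09 with 1 rat left out) and Steap4 (0.049 with the covariate); the cause was not tested. Signal over background was not measured here.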

Other observations

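Alas2, the isoenzyme of developing red cells, was followed with other erythroid genes by rat, chosen after their values were seen. Only some of the 9 measured erythroid markers are given here, so the values below do not describe the whole list. Extract rat 5 (7.91) and control rat 6 (7.94) were the highest of the 14 rats in Alas2, against 6.62 to 7.29 in the other 12. The same 2 rats were also highest in Ahsp, the hemoglobin-stabilising chaperone of red cell precursors, at 5.03 and 5.07, against at most 4.88. In the beta-globin gene Hbb they stood at 11.90 and 11.96, with control rat 1 at 11.97, and in Hbb-b1 at 11.37 and 11.44, with control rat 1 again the highest (11.53). Slc4a1, the red cell anion exchanger, did not follow: they stood at 5.14 and 5.22 within a range of 4.92 to 5.33. Tfrc, which red cell precursors also express, was 8.14 and 7.91 in these rats, against 7.43 to 8.21 over all 14. One such rat belonged to each group.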
